A study of Mus musculus with 71 samples.

Results

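Of 155738 numbered chromatin intervals measured in ventral spinal cord progenitors grown from mouse embryonic stem cells, 2189 (1.41%) were less accessible in pMN than in either of its dorsal neighbours, p0-p1 and p2, on day 5. By day 11 pMN was no longer below both neighbours by 0.3 or more on the log2 scale. They were chosen from wild-type (WT) values of the deposited table of normalised reads, taken as group means of log2(value + 5). The lower of p0-p1 and p2 had to exceed pMN by at least 0.8 on day 5, and by less than 0.3 on day 11. Because the WT libraries of days 5 and 11 chose the intervals, their values are given here as a description without a test. Tests rest on the libraries labelled MUT on every day and on WT days 7 and 9, none of which entered the choice.

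The series holds 71 ATAC-seq libraries, 38 labelled WT and 33 labelled MUT, in 26 groups of 2 or 3. ATAC-seq counts the cuts that a transposase makes in accessible DNA. Cells were fixed, transposed, stained inside the cell for markers that include SOX2, NKX6.1 and OLIG2, and sorted on days 5, 7, 9 and 11 into the populations p0-p1, p2 and pMN. All groups came from cultures that were given retinoic acid and, from day 3 on, 10 nM of the Smoothened agonist SAG. The libraries of days 5 and 7, of WT day 9 in p0-p1, and of MUT on every day carry the fraction name NFIAn. WT p2 and pMN on day 9 have both NFIAn and NFIAp groups, and WT day 11 has NFIAp in each population. On day 11, therefore, genotype and fraction cannot be told apart. The labels do not name the gene changed in MUT, nor do they tie replicates to cultures of their own. The p-values therefore measure a spread between libraries that may be technical.

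Progenitors of the ventral neural tube are ordered along the dorsoventral axis by graded Sonic hedgehog signalling, which SAG mimics. The p0, p1 and p2 domains lie dorsal to pMN and give rise to ventral interneurons, whereas the OLIG2-positive pMN domain gives rise to motor neurons and later to oligodendrocyte precursors. Distal regulatory elements can be more accessible in one such domain than in its neighbours, and transcription factors such as NFIA mark the later progenitors that turn towards making glia. The table identifies each interval by a number alone, so positions, genes and sequences were not analysed here.

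Libraries held 20034731 to 31315134 recovered reads. Across the group of 5 neighbouring intervals that separates the genotypes, the library labelled MUT day 7 pMN replicate 3 held 213 reads, where every other library labelled MUT held 0 or 1. The library labelled WT day 7 pMN replicate 3 held 0 there, where the other WT libraries held at least 148. These 2 libraries went against their genotype labels. The library labelled WT day 9 p2 NFIAp replicate 2 had a median of 11.4 normalised reads over the 2189 intervals, against 14.1 and 15.0 in the other libraries of its group and 10.2 to 10.7 in the pMN NFIAp libraries. Many results that rest on these 3 libraries are given with and without them. Others, among them class counts that involve day 7 and the count across all comparisons with pMN, are given only with them. Shares over all intervals come from fits with all libraries unless stated, so they are no background for counts without these 3.

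The intervals were less accessible in pMN on WT day 5, but most were not shut there. Their median in the 2 WT day 5 libraries was 44.1 and 37.1 normalised reads in p0-p1, 33.7 and 29.3 in p2, but only 13.3 and 13.3 in pMN. The pMN mean was under 5 normalised reads at 376 of them, or 17.2%, against 11.4% of all intervals. It was under 10 at 867, or 39.6%, against 23.3% of all intervals, and 9 intervals had no read in either pMN library. Another 590 lay at or above 27.9, the pMN median over all intervals. The name "absent in pMN" therefore holds for a minority, and "lower in pMN" describes the set. A smaller share of cells with an open site and less opening per cell cannot be told apart in sorted bulk libraries.

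The day 5 difference that the choice used ranged from 0.80 to 2.16 on the log2 scale, with a median of 0.93. It reached 1 at 768 intervals and 2 at 5. Every p0-p1 and p2 library lay above both pMN libraries at 2158 of the 2189. The choice used these same libraries and so favours such a count, and its share over all intervals was not computed. On day 11 the corresponding WT difference had a median of -0.04, and at 1213 intervals pMN lay above the lower of p0-p1 and p2. The WT day 11 library medians over the intervals were 14.6, 14.2 and 12.7 normalised reads in p0-p1, still above the 10.4, 10.4 and 9.29 in pMN. The threshold cut through a continuum: Interval_38526, just inside, had a day 5 difference of 0.80 with 115 and 79.9 normalised reads in p0-p1 and 94.1 and 65.1 in p2, against 41.7 and 44.1 in pMN. Interval_100906, just outside, also had 0.80 when rounded, with 304 and 237 in p0-p1 and 265 and 192 in p2, against 129 and 126 in pMN.

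In the MUT libraries of day 5, accessibility was again higher in p0-p1 and p2 than in pMN. The median over the intervals was 43.2, 50.0 and 49.4 normalised reads in the 3 p0-p1 libraries, 36.5, 38.7 and 39.2 in p2, and 18.7, 21.6 and 24.6 in pMN. The 3 populations did not overlap in this median. An interval was called where limma, fitted over all 155734 intervals that passed a filter on low values, gave an adjusted p under 0.05 and a log2 difference of at least 1; all 2189 passed that filter. By this rule 957 of the 2189 (43.7%) were higher in p0-p1 than in pMN, against 4.60% of all intervals tested. In p2 379 (17.3%) were higher than in pMN, against 0.876%.

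Most of the intervals lay on the same side whether called or not. The fitted difference was above 0 at 2130 intervals for p0-p1 (97.3%; 55.2% of all) and at 2124 for p2 (97.0%; 56.4% of all). The medians were 0.92 and 0.69, where the medians of all intervals were 0.06 and 0.05. Every p0-p1 library exceeded every pMN library at 1629 intervals (74.4%; 23.2% of all), and every p2 library did so at 1389 (63.5%; 15.6% of all). Both comparisons share the same pMN libraries, and 331 intervals (15.1%; 0.690% of all) were called in each. The counts move with the rule for a call: with no minimum difference they were 1534 for p0-p1 (14.6% of all) and 1011 for p2 (4.04% of all), and with a pseudocount of 20 they were 406 and 86. The pMN median was higher in MUT than in WT on day 5, at 22.2 against 13.3 normalised reads. Since low WT pMN values chose the intervals, that gap is a description and was not tested.

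**Figure D1:**
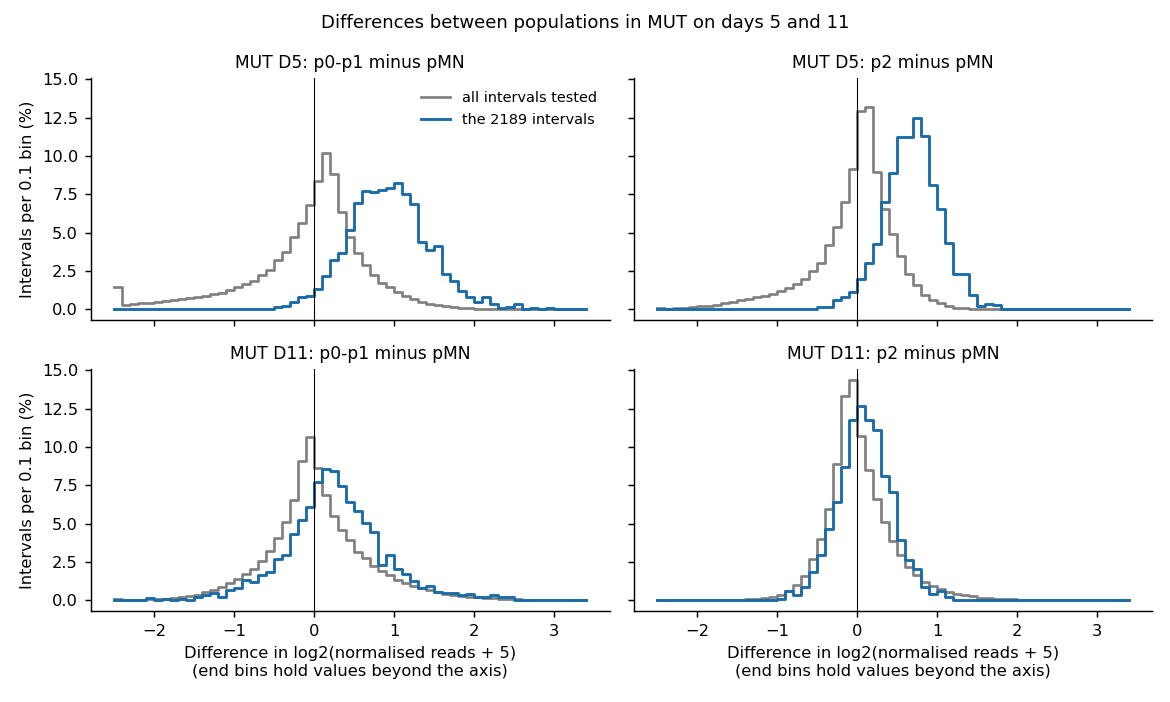
Distribution of the fitted difference (x axis, log2 of normalised reads + 5) between p0-p1 or p2 and pMN in MUT on days 5 and 11, as the percentage of intervals per bin, for the 2189 intervals (blue) and all intervals tested (grey). On day 5 the blue curves centre on 0.92 and 0.69, and on day 11 on 0.24 and 0.09.

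Intervals are named where the WT difference, the MUT difference or a change over time was largest among those at or above the median level. Interval_32657 had the largest WT difference, 2.16, with 198 and 147 normalised reads in p0-p1 and 126 and 87.9 in p2, against 16.1 and 23.6 in pMN on day 5. In MUT on day 5 it had 190, 235 and 207 in p0-p1 and 173, 194 and 161 in p2, against 44.9, 51.9 and 52.4 in pMN. No p0-p1 or p2 library overlapped with pMN, and p0-p1 overlapped with p2. The limma differences from pMN were 1.98 ± 0.27 (SE, n = 3 against 3, adjusted p = 1.9e-08) for p0-p1 and 1.73 ± 0.27 (adjusted p = 2e-06) for p2.

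Interval_138212 had the higher p2 mean of the 2 dorsal populations. Its MUT day 5 values were 173, 318 and 325 in p0-p1 and 166, 390 and 373 in p2, against 52.4, 89.7 and 133 in pMN. Replicate 1 was the lowest in each population, but in p0-p1 and p2 it lay above every pMN library. Whether intervals numbered near Interval_138212 share this replicate order was not tested. The differences from pMN were 1.55 ± 0.32 for p0-p1 and 1.70 ± 0.32 for p2. Interval_613 had 52.3, 102 and 88.3 in p0-p1 and 76.3, 88.7 and 77.5 in p2, against 17.8, 21.6 and 30.2 in pMN. Its differences from pMN were close to each other, at 1.58 ± 0.25 for p0-p1 and 1.63 ± 0.25 for p2. These 3 intervals were called in both comparisons.

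A large WT difference did not carry over at every interval. Interval_5418 had a WT difference of 1.81, with 35.1 and 30.4 normalised reads in p0-p1, 31.4 and 35.8 in p2, but 14.2 and 1.03 in the 2 pMN libraries. One low pMN library thus set its rank. In MUT on day 5 it had 17, 30.4 and 30.5 in p0-p1 and 29.0, 39.8 and 31.0 in p2, against 21.5, 13 and 18.3 in pMN. The differences were 0.44 ± 0.31 (limma, adjusted p = 0.29) and 0.77 ± 0.31 (adjusted p = 0.084), neither of them called.

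On day 7 the 3 populations formed a gradient, with p2 closer to pMN than on day 5. In WT the library medians over the intervals were 31.9, 27.7 and 31.8 normalised reads in p0-p1 and 20.6, 19.5 and 22.1 in p2, against 13.8, 12.7 and 16.3 in pMN. In MUT they were 34.4, 34 and 36.0, then 22.9, 23.7 and 25.6, then 14.5, 15.0 and 14.8. The populations did not overlap in either genotype. The order p0-p1 above p2 above pMN held at 1645 intervals in WT (75.1%; 24.3% of all) and 1765 in MUT (80.6%; 25.5% of all). Without the 2 libraries of doubted genotype these counts were 1703 (77.8%; 24.1% of all) and 1742 (79.6%; 25.7% of all). Other intervals met the same WT day 5 condition but kept a WT day 11 difference of at least 0.3. With all libraries in, the order held at 89.8% of those in WT and 90.8% in MUT.

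In WT on day 7, 791 intervals (36.1%) were called higher in p0-p1 than in pMN, against 4.19% of all, and 151 (6.90%) higher in p2 than in pMN, against 1.97%. Without the doubted libraries the counts were 901 and 245, and the medians moved from 0.80 and 0.38 to 0.86 and 0.45. In MUT 1057 (48.3%; 5.67% of all) were called for p0-p1 and 317 (14.5%; 2.55% of all) for p2, or 1023 and 295 without the doubted libraries. Between p0-p1 and p2, 136 intervals were higher in p0-p1 in WT (0.925% of all) and 152 in MUT (1.08% of all). Of the 957 intervals called for p0-p1 on MUT day 5, 620 (64.8%) were also called on MUT day 7 and 471 (49.2%) on WT day 7. Of all intervals called on MUT day 5, the shares were 47.9% and 33.4%. Without the doubted libraries the 2 counts were 607 (63.4%) and 528 (55.1%). The shares of all intervals in this paragraph come from fits with all libraries, so they are no background for the counts without the doubted ones.

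By day 9 p2 had drawn close to pMN while p0-p1 was still above both. The WT NFIAn medians were 16.9, 19.0 and 17.8 normalised reads in p0-p1 and 12.1, 13.2 and 11.8 in p2, against 10.6 and 10.0 in pMN. In MUT they were 21.2 and 21.7, then 14.3 and 14.9, then 11.8 and 11.4. The populations still did not overlap, though p2 and pMN lay within a few reads of each other. In p0-p1 449 intervals (20.5%; 6.21% of all) were called above pMN in WT and 543 (24.8%; 5.55% of all) in MUT. In p2 the counts were 51 (2.33%) in WT and 79 (3.61%) in MUT, near or under the 4.80% and 3.86% of all intervals. Leaving out 1 of the 2 MUT day 9 pMN libraries, replicate 1, lowered the MUT counts to 355 and 19, and leaving out p2 replicate 2 lowered the p2 count to 18. Without WT day 9 pMN replicate 1 the WT p2 count was 30.

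On MUT day 11 the differences in log2(value + 5) were smaller than on day 5. The medians were 17.1, 16.1 and 17 in p0-p1 and 13.1, 12.4 and 13.8 in p2, against 13.1, 11.8 and 10.3 in pMN, so p2 and pMN overlapped and p0-p1 remained above both. Called intervals numbered 226 for p0-p1 over pMN (10.3%; 7.63% of all) and 52 in the opposite direction (2.38%; 4.75% of all). For p2 there were 20 (0.914%; 2.86% of all), and 10 to 26 when 1 library was left out. The median differences were 0.24 and 0.09. The added 5 compresses log2 differences more at these low levels than at those of day 5, and the extent was not tested. The p0-p1 counts moved with the settings: 226 became 391 with a pseudocount of 1, 386 with edgeR, 479 with no minimum difference and 75 with a pseudocount of 20, and 52 became 79 without MUT day 11 pMN replicate 3. Intervals that met the same WT day 5 condition but kept a WT day 11 difference of at least 0.3, 1578 in number, had 755 (47.8%) called for p0-p1 and 322 (20.4%) for p2, with medians of 0.96 and 0.61. The rule used WT day 11 to separate these sets, and the difference between them was not tested. Of the 957 intervals called on MUT day 5, 138 (14.4%) were called on MUT day 11, against 20.3% of all intervals called on MUT day 5.

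**Figure D2:**
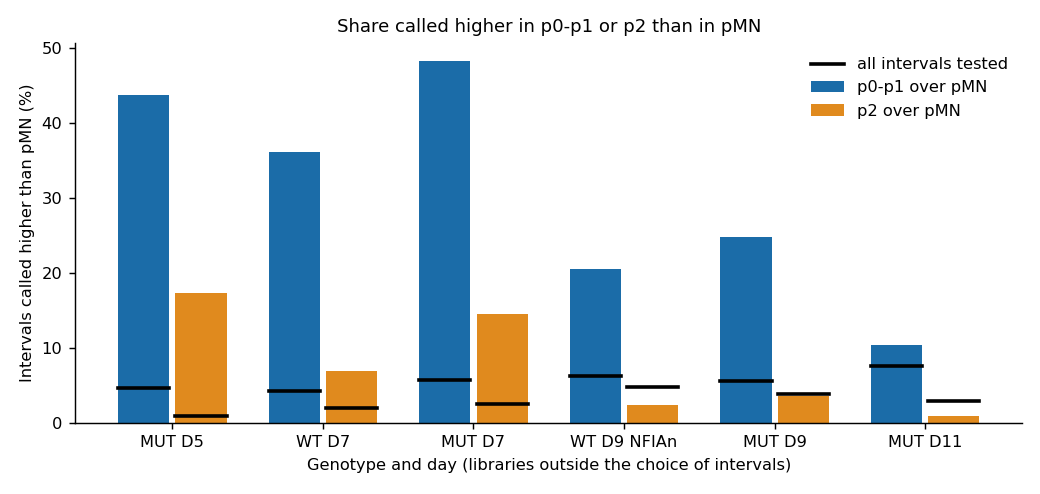
Percentage of the 2189 intervals called higher in p0-p1 (blue) or p2 (orange) than in pMN, by genotype and day, with black lines for the percentage of all intervals tested. For p0-p1 the share fell from 43.7% on MUT day 5 to 10.3% on MUT day 11, and for p2 from 17.3% to 0.914%.

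Across the 13 comparisons of p0-p1 or p2 with pMN that lay outside the choice, 1552 intervals (70.9%; 19.4% of all) were called higher than pMN at least once. The other 637 were called higher than pMN in none of the 13, and the median interval was called in 2. When the set was divided into 4 equal groups by mean level on days 7 to 11, the share called for p0-p1 on MUT day 5 was 56.0% in the lowest group, with means of 0.917 to 10.1 normalised reads, and 36.4% in the highest, with means from 45.0 up. Over all intervals at the same levels the shares were 10.2% and 2.46%, so the share fell with level there as well. The median difference was 1.06 in the lowest and 0.85 in the highest, against 0.08 and 0.08 over all intervals at those levels.

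Over time accessibility fell at most of the intervals in p0-p1 and p2, and at a smaller share in pMN. From MUT day 5 to day 11, 1271 intervals (58.1%; 17.4% of all) fell in p0-p1, 1222 (55.8%; 17.9% of all) in p2 and 821 (37.5%; 19.5% of all) in pMN. The median changes were -1.29, -1.22 and -0.61, where those of all intervals were 0.05, 0.02 and 0.00. In both p0-p1 and p2 1123 intervals fell (51.3%; 13.9% of all), and in all 3 populations 793 fell (36.2%; 10.7% of all). Rises numbered 149 in p0-p1 (24.1% of all rose), 194 in p2 (22.4%) and 322 in pMN (19.7%), and 113 rose in all 3 (12.3%). A fall in p0-p1 with a rise in pMN was called at 3 intervals (0.137%; 0.0340% of all), too few to compare the shares.

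The fall of the 2189 intervals was spread unevenly over time. In MUT p0-p1 the median change was -0.36 from day 5 to 7, -0.55 from day 7 to 9 and -0.25 from day 9 to 11. In p2 the 3 steps were -0.53, -0.46 and -0.11, and in pMN -0.40, -0.17 and -0.01. The last of these changed sign, to 0.01 with quantile normalisation, 0.04 without MUT day 11 pMN replicate 3 and 0.03 without MUT day 9 pMN replicate 2. Without the doubted library the first 2 steps in pMN were -0.36 and -0.20. In WT, the one step outside the choice, from day 7 to day 9 NFIAn, had a median of -0.57 in p0-p1, one of -0.52 in p2 and one of -0.31 in pMN. In that step 552 intervals fell in p0-p1 (5.27% of all), 486 in p2 (6.10%) and 317 in pMN (8.40%), the last being 258 without the doubted library.

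The change in log2(value + 5) from day 5 to day 11 in MUT differed between populations. The difference p0-p1 minus pMN itself fell at 639 intervals (29.2%; 7.95% of all) and rose at 24 (1.10%; 15.9% of all), with a median change of -0.69. The difference p2 minus pMN fell at 261 (11.9%; 1.24% of all), with a median change of -0.61. The p2 count was 152 with a pseudocount of 1, 88 with a pseudocount of 20, 159 with edgeR and 159 without MUT day 5 pMN replicate 1.

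**Figure D3:**
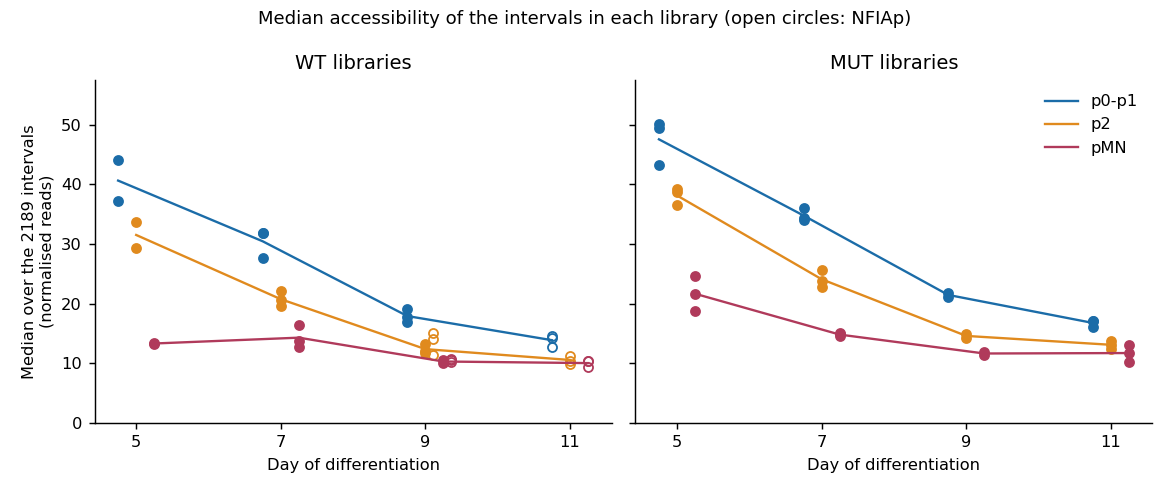
Median normalised reads over the 2189 intervals in each library (points) by day for WT and MUT, with lines through group means and open circles for NFIAp libraries. In MUT p0-p1 the 3 day 5 libraries lie between 43.2 and 50.0 and the 3 day 11 libraries between 16.1 and 17.1, above pMN on each day.

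By their WT change from day 5 to day 11, 1152 intervals (52.6%) lost at least 1 on the log2 scale in both p0-p1 and p2 ("dorsal loss"), 508 (23.2%) gained at least 1 in pMN ("pMN gain"), and 529 (24.2%) did neither. These classes use the values that chose the intervals, and their counts get no test. In MUT the first class went from medians of 60.2, 47.6 and 25.8 normalised reads in p0-p1, p2 and pMN on day 5 to 9.73, 7.05 and 6.17 on day 11. Of its 1152 intervals 1064 fell in p0-p1, 1052 fell in p2 and 775 did so in pMN, against 17.4%, 17.9% and 19.5% of all intervals. These are 92.4%, 91.3% and 67.3% of the class, and the median changes were -1.98, -1.98 and -1.30. The second class went from 34.3, 29.9 and 19.1 to 49.8, 56.8 and 60.0, and 309 of its 508 (60.8%; 19.7% of all) rose in MUT pMN, with a median change of 1.18. In p2 186 of them rose (36.6%; 22.4% of all) and in p0-p1 130 rose (25.6%; 24.1% of all), the last share near that of all intervals. Most of the MUT pMN rise came late: 215 rose from day 9 to 11 (9.30% of all intervals), where 54 rose from day 5 to 7 (6.76% of all) and 54 from day 7 to 9 (4.08% of all). In the third class the medians were 36.7, 29.0 and 17.2 on day 5 and 22.3, 16.8 and 14.9 on day 11.

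**Figure D4:**
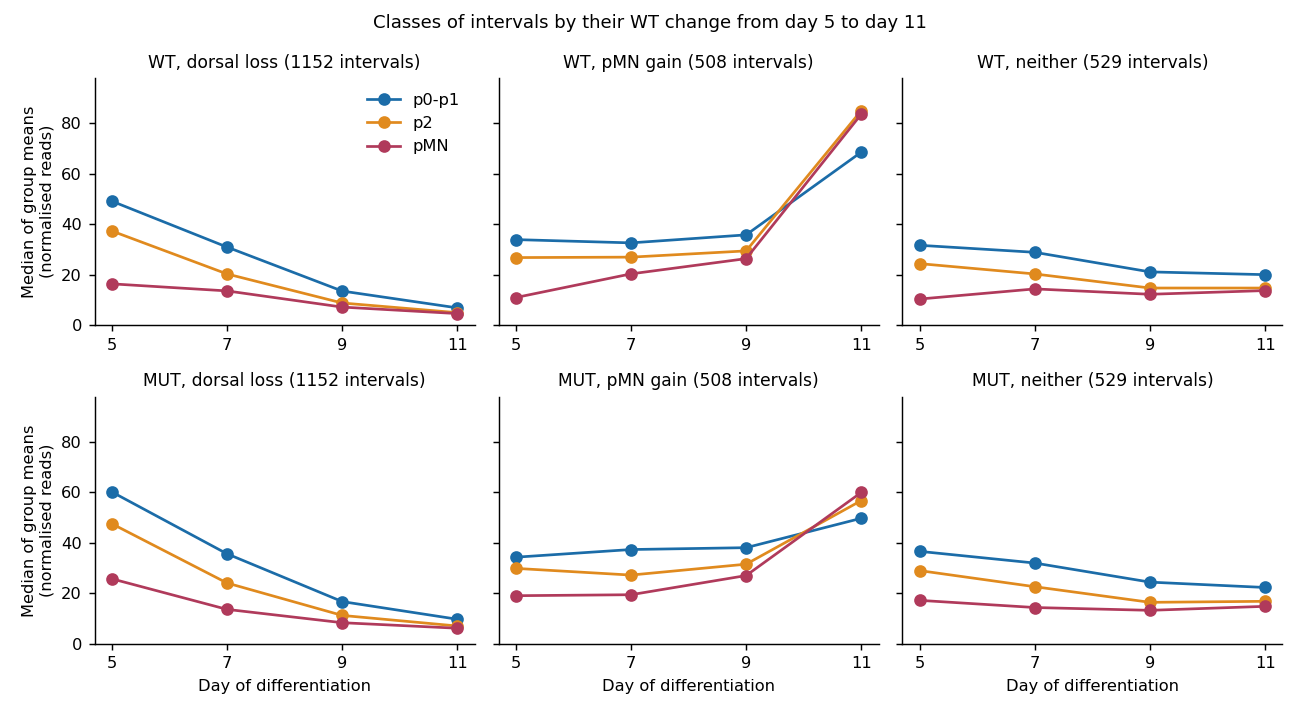
Median of group mean normalised reads (y axis) by day in p0-p1, p2 and pMN for the 3 classes, in WT (top) and MUT (bottom); day 11 is NFIAp in WT and NFIAn in MUT. The 1152 intervals of the first class end at 9.73, 7.05 and 6.17 in MUT, and the 508 of the second at 49.8, 56.8 and 60.0.

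Interval_103056 had the largest fall. In MUT p0-p1 it went from 779, 781 and 767 normalised reads on day 5 to 5.99, 4.48 and 7.17 on day 11, in p2 from 743, 605 and 685 to 6.03, 5.73 and 4.59, and in pMN from 278, 236 and 300 to 2.18, 6.86 and 5.60. Day 5 and day 11 did not overlap in any population, and on day 11 the populations did. The limma changes were -6.17 ± 0.24 (SE, n = 3 against 3, adjusted p = 7.4e-32), -6.03 ± 0.24 and -4.83 ± 0.24. Interval_42955 fell earlier: its MUT p0-p1 values were 399, 702 and 814 on day 5 but already 26.6, 25.5 and 26.4 on day 7, and its pMN values went from 195, 425 and 479 to 7.81, 10.9 and 9.90. Interval_154405 was still at 290, 280 and 162 in MUT p0-p1 on day 7, from 432, 432 and 396, and reached 3.42, 7.16 and 8.06 on day 11.

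Interval_16503 rose in every population. Its MUT pMN values were 4.68, 6.49 and 8.73 normalised reads on day 5, 5.58, 5.01 and 2.47 on day 7, and 133 and 29.8 on day 9. On day 11 they were 1207, 888 and 706. The rise from day 5 to day 11 was 6.32 ± 0.41 (limma, n = 3 against 3, adjusted p = 3.3e-21) in pMN, 5.93 ± 0.41 in p2 and 3.97 ± 0.41 in p0-p1. Its day 5 difference rested on low values in WT, 11.3 and 9.0 in p0-p1 against 1.90 and 3.08 in pMN, and in MUT on day 5 it was 0.26 ± 0.41 (adjusted p = 0.68). On MUT day 11 it was lower in p0-p1 than in pMN, with a fitted log2 difference of -2.09 ± 0.41. Interval_3373 behaved alike, with MUT pMN values of 8.42, 13 and 7.94 on day 5 and 1041, 866 and 797 on day 11, but it had reached 172, 137 and 86.6 by day 7.

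In 9 intervals the WT order had turned round by day 11, with pMN above both others by at least 0.8. That count uses the WT values that chose the intervals, so it is a description, and its share over all intervals was not computed. Interval_133045 was the one interval at or above the median level that was also called lower in both p0-p1 and p2 than in pMN on MUT day 11. On MUT day 5 pMN was already the higher in the fit, with differences of -0.44 ± 0.33 for p0-p1 and -0.65 ± 0.33 for p2 (limma, n = 3 against 3, adjusted p = 0.32 and 0.2, neither called). Its values on MUT day 11 were 41.9, 30.4 and 22.4 in p0-p1 and 42.2, 38.2 and 22.0 in p2, against 217, 171 and 81.2 in pMN, without overlap. The differences were -2.07 ± 0.33 (limma, n = 3 against 3, adjusted p = 9.3e-07) and -1.98 ± 0.33 (adjusted p = 1.3e-05). In WT NFIAp on day 11 it had 18.5, 27.6 and 23.6 in p0-p1 and 33.8, 24.0 and 15.7 in p2, against 486, 314 and 236 in pMN.

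Interval_21992 met the day 11 part of the choice through p2 and not through p0-p1. In MUT p0-p1 it had 395, 360 and 355 normalised reads on day 5 and 403, 375 and 499 on day 11, and in p2 246, 182 and 165 and then 199, 175 and 212. In pMN it rose from 71.1, 58.4 and 51.6 to 139, 118 and 145, a change of 1.09 ± 0.18 (limma, n = 3 against 3, adjusted p = 4e-07). It was under the minimum change of 1 with a pseudocount of 20 (0.94) and without MUT day 5 pMN replicate 3 (0.99). On MUT day 11 p0-p1 was higher than pMN by 1.63 ± 0.18, and in WT on day 11 p0-p1 held 521, 411 and 509 against 169, 193 and 185 in pMN. Interval_110460 was lower in pMN on each day in MUT, with 62.5, 68.9 and 60.9 in p0-p1 against 31.6, 35.3 and 14.9 in pMN on day 11, a difference of 1.16 ± 0.27 (adjusted p = 0.00047). That was 0.86 with a pseudocount of 20 and 0.85 without MUT day 11 pMN replicate 3, and then not called. Its WT day 11 values ran the other way, at 73.1, 91.7 and 62.6 against 149, 114 and 81.7.

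**Figure D5:**
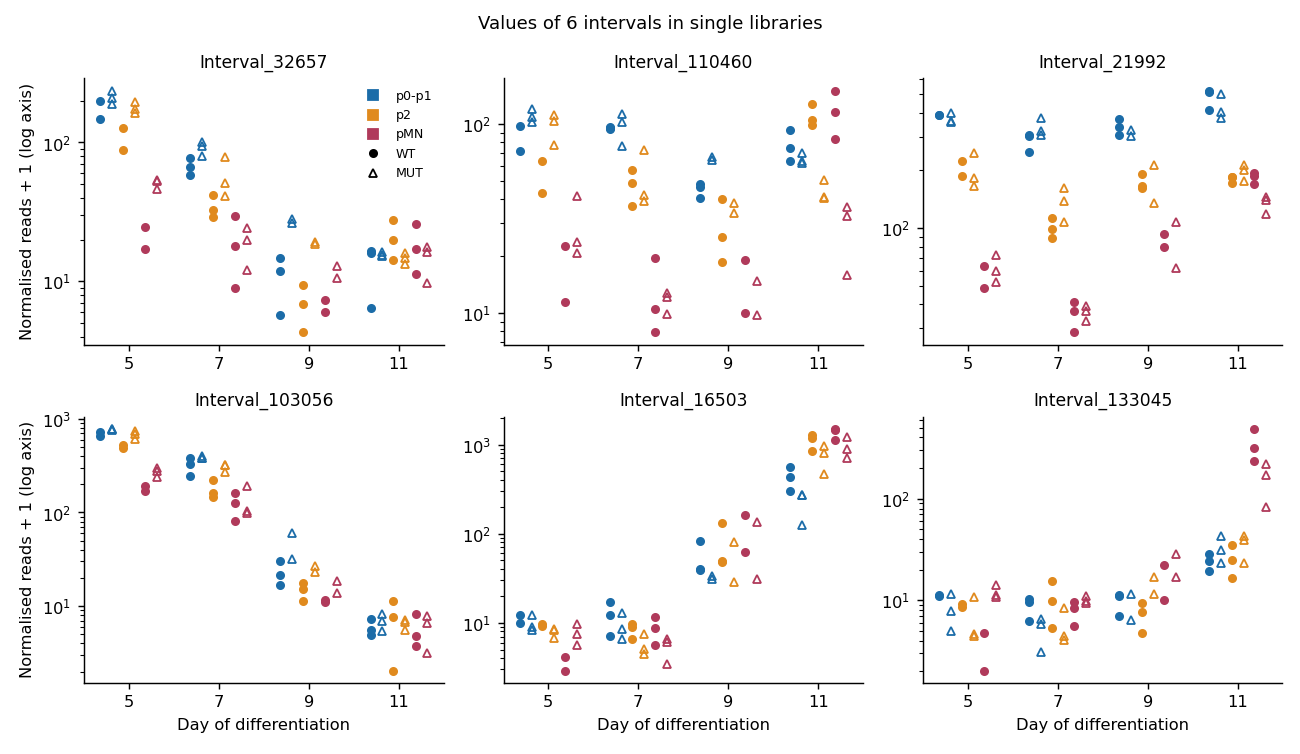
Normalised reads + 1 (log axis) of 6 intervals in single libraries by day, coloured by population, filled circles for WT and open triangles for MUT, without the WT day 9 NFIAp libraries. Interval_103056 falls from 767 to 781 in MUT p0-p1 on day 5 to under 8 on day 11, and Interval_16503 rises to between 706 and 1207 in MUT pMN.

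Few of the intervals were called between genotypes on days 7 and 9 at the minimum log2 difference of 1. With the 3 populations averaged, 1 interval was called between MUT and WT on day 7 (0.0283% of all) and 17 on day 9 NFIAn (0.658% of all), 9 of them higher in MUT and 8 lower. Without the doubted libraries the day 7 count was 5. With quantile normalisation the day 9 split was 6 higher and 9 lower, and with equal library totals 13 higher and 7 lower. The median difference, MUT minus WT, was 0.11 on day 7 and 0.17 on day 9, against 0.02 and 0.07 over all intervals. By limma, 518 intervals (23.7%; 20.7% of all) differed at an unadjusted p under 0.05 in either direction on day 7. On day 9 that number was 671 (30.7%; 33.7% of all). No interval was called by limma for a population difference that itself differed between genotypes, on either day and for either p0-p1 or p2, and edgeR likewise called 0. At an unadjusted p under 0.05, in either direction, there were 112 for p0-p1 (5.12%; 4.35% of all) and 117 for p2 (5.34%; 4.31% of all) on day 7. On day 9 there were 63 (2.88%; 2.56% of all) and 66 (3.02%; 2.00% of all), and over all intervals 0 were called too. The day 7 medians of these differences were 0.16 and 0.16, and 0.06 and 0.06 without the doubted libraries.

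With all libraries in, few of the intervals were called between the NFIA fractions on WT day 9. In p2, 20 were higher in NFIAp than in NFIAn (0.914%; 1.14% of all) and 10 were lower (0.457%; 2.61% of all). Without the doubted p2 library 99 were called in either direction. The shares of all intervals in this paragraph come from fits with that library, so they are no background for the counts without it. In pMN limma and edgeR each called 0, where 0.0122% of all intervals were called higher. At an unadjusted p under 0.05, in either direction, there were 188 (8.59%), against 9.77% of all intervals. The change between fractions itself differed between p2 and pMN at 6 intervals, 2 of them higher (0.0629% of all) and 4 lower (1.50% of all) in p2. The p2 minus pMN difference within NFIAp was called higher at 5 intervals (0.228%; 0.359% of all), and at 66 without the doubted library, whose values were close to pMN; it was called at 0 without p2 NFIAp replicate 3. The median p2 minus pMN difference was 0.15 in NFIAp, or 0.23 without the doubted library, and 0.14 in NFIAn. With the replicate number as a block the pMN count was 5 and the p2 minus pMN count within NFIAp was 9. With a block within genotype and day, chosen after seeing the data, these were 33 and 11, and 24 intervals differed between p2 and pMN in their change between fractions.

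Most of the intervals had no other member beside them in the numbering, though members followed each other more often than the share of members in the table. Of the 2189, 115 (5.25%) had a member as the next or previous number, and the longest unbroken run, Interval_68027 to Interval_68030, held 4. The following number belonged to the set in 2.79% of cases, against 1.41% for any interval. A block of consecutive numbers that includes Interval_21992 held 199 of the 2189 (9.09%; 6.92% of all intervals). Another, which includes Interval_138212, held 147 (6.72%; 6.07% of all), and a further block held 22 (1.01%; 1.04% of all). The 4200 neighbours that were not members had a median WT day 5 difference of -0.00, where the median of all intervals was -0.05. As to level, 846 of the 2189 (38.6%) had a mean over all libraries at or above the median of all intervals, and the median of the set was 23.0 normalised reads, against 31.8.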

How the data were processed

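The authors deposited 1 table of signal values, each the reads of an interval scaled by a factor of its library. The build, mm10, is given per the labels, and the aligner and peak caller are not given in the sources used here. Libraries were grouped by their titles and population labels. Dividing each column by its value of 1 read gave whole reads, within 0.01, for 100% of values. Signal was analysed as log2(value + 5) over intervals that reached 10 in 2 or more libraries, with limma 3.58.1 (R 4.3.3, 1 model over 26 groups, 45 residual degrees of freedom, Benjamini-Hochberg adjustment over all intervals). edgeR 4.0.16 on the recovered reads was an alternative. The fit was also run on simulated data, with changes planted only at or above the median level and libraries drawn independently. That simulation does not cover changes at lower levels or correlated replicates. With a median of 14 reads per interval in a WT day 5 pMN library, counting error alone was 26.7% there.

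In 11 of 15 comparisons between groups of 3 within a genotype and day, every same-numbered pair's deviations correlated over 0.1 (0.11 to 0.43). In the other 4, MUT day 11 and WT day 9 NFIAn p0-p1 against p2, the lowest pair was at 0.042 to 0.083. Pairs between days ran from -0.08 to 0.17. No label ties the numbers to a shared culture. Named intervals are the extremes, at or above the median level, of the WT and MUT day 5 differences, the MUT rises and falls, and the MUT day 11 reversals, plus those next to the threshold. The members and lists were chosen with earlier results of these data known. The alternatives were another pseudocount, no minimum difference, no filter, other scalings, a replicate block, fits on the compared groups alone, and fits that left out libraries.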

Additional observations from a re-analysis of the deposited data

Results flagged for a closer look

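In MUT the change in log2(value + 5) from day 5 to day 11 differed between populations by an interaction test in limma. The p0-p1 minus pMN difference fell at 639 of the 2189 intervals (7.95% of all intervals fell), and the p2 minus pMN difference fell at 261 (1.24% of all). Both comparisons share the pMN libraries.

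On WT day 9, 6 intervals had an NFIAp minus NFIAn change that was unequal in p2 and pMN by the same kind of test, 2 higher and 4 lower in p2 (0.0629% and 1.50% of all). With the doubted p2 NFIAp library left out the count was 12, with quantile normalisation the split was 6 higher and 4 lower, and over the libraries left out singly it ran from 0 to 13. With a replicate block within genotype and day, chosen after seeing the data, it was 24.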

How the results depend on the processing

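For the tests printed for named intervals, direction held under each alternative run, and calls held apart from 2: the Interval_21992 rise in MUT pMN (0.94 with a pseudocount of 20, 0.99 without MUT day 5 pMN replicate 3) and the Interval_110460 difference on MUT day 11 (0.86 with a pseudocount of 20, 0.85 without MUT day 11 pMN replicate 3). The median MUT pMN change from day 9 to 11 changed sign, to 0.01 with quantile normalisation, which also turned the day 9 genotype split from 9 higher and 8 lower to 6 and 9 and the NFIA split between p2 and pMN from 2 and 4 to 6 and 4. Of the counts, 392 further values under alternatives stayed within 1.5 times. In the order MUT day 5, WT day 7, MUT day 7, WT day 9 NFIAn, MUT day 9 and MUT day 11, a pseudocount of 20 gave 406, 351, 483, 123, 206 and 75 intervals higher in p0-p1 than in pMN and 86, 31, 91, 11, 13 and 4 higher in p2, with 0 in WT day 9 NFIAp, and 30 and 1 lower on MUT day 11. It gave 780 falls in MUT p2, 367 falls and 211 rises in pMN, 328 and 88 falls of the p0-p1 and p2 differences from pMN, 252, 195 and 106 falls from WT day 7 to 9 in p0-p1, p2 and pMN, and 31, 39 and 56 intervals between p0-p1 and p2 on MUT day 5, WT day 7 and MUT day 11. It gave 72 called in both on MUT day 5, 699 falling in both, 358 falling in all 3 and 1 falling in p0-p1 and rising in pMN, 0 and 4 between genotypes on days 7 and 9, and 4, 1 and 1 for the NFIA contrasts in p2, in pMN and between them.

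With no minimum difference, the p0-p1 counts were 1534 (MUT day 5), 1247 (WT day 7) and 479 (MUT day 11), and the p2 counts 1011, 386, 679, 96 and 50 (MUT day 5, WT day 7, MUT day 7, WT day 9, MUT day 11) and 11 (WT day 9 NFIAp), with 144 and 13 lower on MUT day 11. Rises numbered 242 in MUT p0-p1 and 310 in p2, and falls from WT day 7 to 9 were 974, 841 and 498. Between p0-p1 and p2 there were 176, 364 and 336. Other counts were 910 called in both, 190 rising in all 3, 39 falling in p0-p1 and rising in pMN, 165 and 416 between genotypes, and 82 for NFIA in p2. A pseudocount of 1 and edgeR on the recovered reads gave 391 and 386 for p0-p1 on MUT day 11, 52 and 35 for p2, 7 and 7 lower in p2, 18 and 26 for WT day 9 NFIAp, 152 and 159 falls of the p2 difference, 8 and 8 and then 64 and 80 between genotypes, 55 and 96 for NFIA in p2, 242 and 250 between p0-p1 and p2 on MUT day 11, and 7 and 5 falling in p0-p1 and rising in pMN. A pseudocount of 1 gave 87 for p2 on WT day 9, and edgeR gave 207 between p0-p1 and p2 on WT day 7 and 3 for NFIA between p2 and pMN. Quantile normalisation gave 11 for p2 on MUT day 11, 9 for WT day 9 NFIAp and 10 for NFIA between p2 and pMN. Fits on the compared groups alone gave 39 for p2 on MUT day 9, and 0, 1 and 0 for WT day 9 NFIAp, NFIA in p2 and NFIA between p2 and pMN. The cause of these shifts was not tested.

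Without the 3 doubted libraries the p2 count on WT day 7 was 245 (241 without the 2 of doubted genotype), WT day 9 NFIAp 66, the day 7 genotype count 5 (5), and NFIA 99 in p2, 5 in pMN and 12 between them. With a replicate block, WT day 9 NFIAp gave 9 and NFIA in pMN 5; with the replicate block within genotype and day, chosen after seeing the data, they gave 11 and 33, and NFIA between p2 and pMN 24. The pairing by replicate number changed no other count by over 1.5 times.

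Leaving out each library in turn gave 355 to 429 for p0-p1 on MUT day 9, 123 to 242 for p2 on WT day 7, 30 to 62 on WT day 9 NFIAn, 18 to 74 on MUT day 9, 10 to 26 on MUT day 11 and 0 to 66 on WT day 9 NFIAp. Intervals lower on MUT day 11 ranged from 37 to 79 for p0-p1 and 2 to 9 for p2. The fall of the p2 difference ranged from 159 to 321, genotype counts from 1 to 4 and 12 to 28, and NFIA counts from 25 to 99 in p2, 0 to 2 in pMN and 0 to 13 between them. A group left with 1 library was assumed to vary like the others. Equal library totals put the median change of all intervals in MUT p0-p1 from day 5 to day 11 at 0.16 (0.05 as reported), and quantile normalisation put that of the p0-p1 difference from pMN at -0.11.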
